A study of Mus musculus with 10 samples.

Results

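The epidermal growth factor (EGF) receptor gene Egfr, its partner receptor Erbb2 and 6 ligand genes (Hbegf, Tgfa, Epgn, Areg, Ereg and Btc) were followed in primary mouse keratinocytes, the cells that build the epidermis. The 8 genes were found by symbol in the GRCm38 annotation, each on 1 of the 37991 rows of the deposited table of FPKM values (fragments per kilobase of gene model, scaled to the library's mapped fragments). Cells came from the skin of pups at postnatal days 4 to 5. The tested pups, called knockout here, were Bcl10-/- for the allele named Bcl10tm1Mak in the strain label, and their littermates, called heterozygous, were Bcl10+/-, so every library carries at least 1 mutant copy. BCL10 is an adaptor that joins CARD-family proteins to the protease MALT1 in NF-kB signalling. Cells in serum-free medium with 0.05 mM calcium chloride were exposed for 5 h to recombinant mouse IL-17A at 200 ng/mL or stayed unstimulated. There were 2 knockout libraries with IL-17A, 2 knockout unstimulated, 3 heterozygous with IL-17A and 3 heterozygous unstimulated. Libraries of 1 genotype that share a number are called a culture (knockout cultures 1 and 2, heterozygous cultures 1 to 3). The labels do not say what a number stands for, and a p-value here reflects how far libraries scatter, some of which may be technical.

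The EGF receptor is a membrane tyrosine kinase that feeds the RAS-ERK and PI3K-AKT pathways, and in the epidermis it drives keratinocyte growth and migration and restrains differentiation. Its ligands are made as membrane-anchored precursors, which metalloproteases such as ADAM17 release, so that a keratinocyte can stimulate itself and its neighbours. ERBB2 has no known ligand of its own and acts as the dimerization partner of the other ERBB receptors.

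Some libraries stood apart from their labels or from the rest. Bcl10 was 0.969 to 17 FPKM in the 4 knockout libraries, 59.5 to 72.3 FPKM in heterozygous cultures 2 and 3, and 16.3 and 18.04 FPKM in heterozygous culture 1, which is at the knockout level and goes against its label. The unstimulated knockout library 1, at 0.969 FPKM, differed from the other 3 knockout libraries, at 16.4 to 17 FPKM. The labels number the knockout libraries and those of heterozygous culture 1 between 1 and 14, and those of heterozygous cultures 2 and 3 between 33 and 38. Genotype comparisons are therefore given with all libraries, without heterozygous culture 1, and with the number set as a term. The basal keratin Krt5 stood at 4430 to 6426 FPKM in every library, and 6 of 6 immune cell markers were listed at 0 throughout. The estimated depth was 15.9 to 50.8 M fragments per library, at which 3 fragments in a gene of 1 kb equal 0.059 to 0.188 FPKM.

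A part of the family is clustered: Epgn, Ereg, Areg and Btc are the 4 protein-coding genes of a 375.5 kb stretch of chromosome 5. Epgn, encoding epigen, lies at chr5:91027464-91035215 on the plus strand, Ereg, encoding epiregulin, at chr5:91074622-91093646 on the plus strand, and Areg, encoding amphiregulin, at chr5:91139599-91148432 on the plus strand. Btc, encoding betacellulin, lies 208.8 kb beyond Areg at chr5:91357261-91402994 on the minus strand. Of the other members, Egfr is at chr11:16752203-16918158 (plus), Erbb2 at chr11:98412470-98437716 (plus) and Tgfa, encoding transforming growth factor alpha, at chr6:86195223-86275719 (plus).

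The 250 bases before the RefSeq start (GRCm38.p6) are shown for Areg and Btc, because these neighbours in the stretch differed in level, Areg at 7.87 to 17.7 FPKM and Btc at 0.576 to 1.59 FPKM. Capitals mark matches to a cyclic AMP response element, TGACGTCA, and a TATA box, TATAAA. Windows were at hand for 6 of the 8 members.
Areg, chr5:91139349-91139598, plus strand: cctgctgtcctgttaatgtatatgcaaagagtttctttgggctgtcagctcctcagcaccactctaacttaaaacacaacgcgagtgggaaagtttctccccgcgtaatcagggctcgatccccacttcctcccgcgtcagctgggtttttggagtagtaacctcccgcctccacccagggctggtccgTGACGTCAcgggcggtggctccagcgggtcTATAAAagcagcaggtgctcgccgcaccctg
Btc, chr5:91402995-91403244, minus strand: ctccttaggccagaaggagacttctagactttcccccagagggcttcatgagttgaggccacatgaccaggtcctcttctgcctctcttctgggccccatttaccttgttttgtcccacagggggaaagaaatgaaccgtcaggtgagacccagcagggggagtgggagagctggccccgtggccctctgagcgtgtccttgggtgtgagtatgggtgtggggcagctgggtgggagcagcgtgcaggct

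In the Areg window the TGACGTCA match began 61 bases and the TATAAA match 31 bases before the start, both on the gene's strand. Both strands were searched. TGACGTCA was present in 1.55% and TATAAA in 12.4% of all 32851 RefSeq windows of this length. The Epgn window held TATAAA at 86 bases before its RefSeq start, and it is not printed because it ends inside the Ensembl gene model. No match to these letters was found in the Btc, Egfr, Erbb2 or Tgfa windows. The kappa-B motif (in 7.25% of all windows) and the AP-1 motif TGANTCA (in 6.75%) had no match in any of the 6 windows.

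The ligand transcripts kept a fixed order of level. In each of the 10 libraries Hbegf was the highest of the 8 members, followed by Tgfa, Epgn and Areg, and Btc was the lowest. On the FPKM scale, which is per length, the medians over the 10 libraries were 51.6 for Hbegf, 33.7 for Tgfa, 16.4 for Epgn, 10.3 for Areg, 8.92 for Egfr, 8.65 for Erbb2, 6.12 for Ereg and 0.831 for Btc. The median of Hbegf lay at the 88.9th percentile of the 12054 genes tested and that of Egfr at the 49.7th. Hbegf and Tgfa, Tgfa and Epgn, and Ereg and Btc did not overlap between any libraries. The ranges of Epgn and Areg overlapped over all libraries, as did those of Areg and Egfr, although Epgn exceeded Areg and Areg exceeded Egfr within each library. Egfr and Erbb2 exchanged ranks between libraries and did not differ beyond their spread, and Ereg exceeded Erbb2 in 1 library, heterozygous culture 2 with IL-17A.

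**Figure D1:**
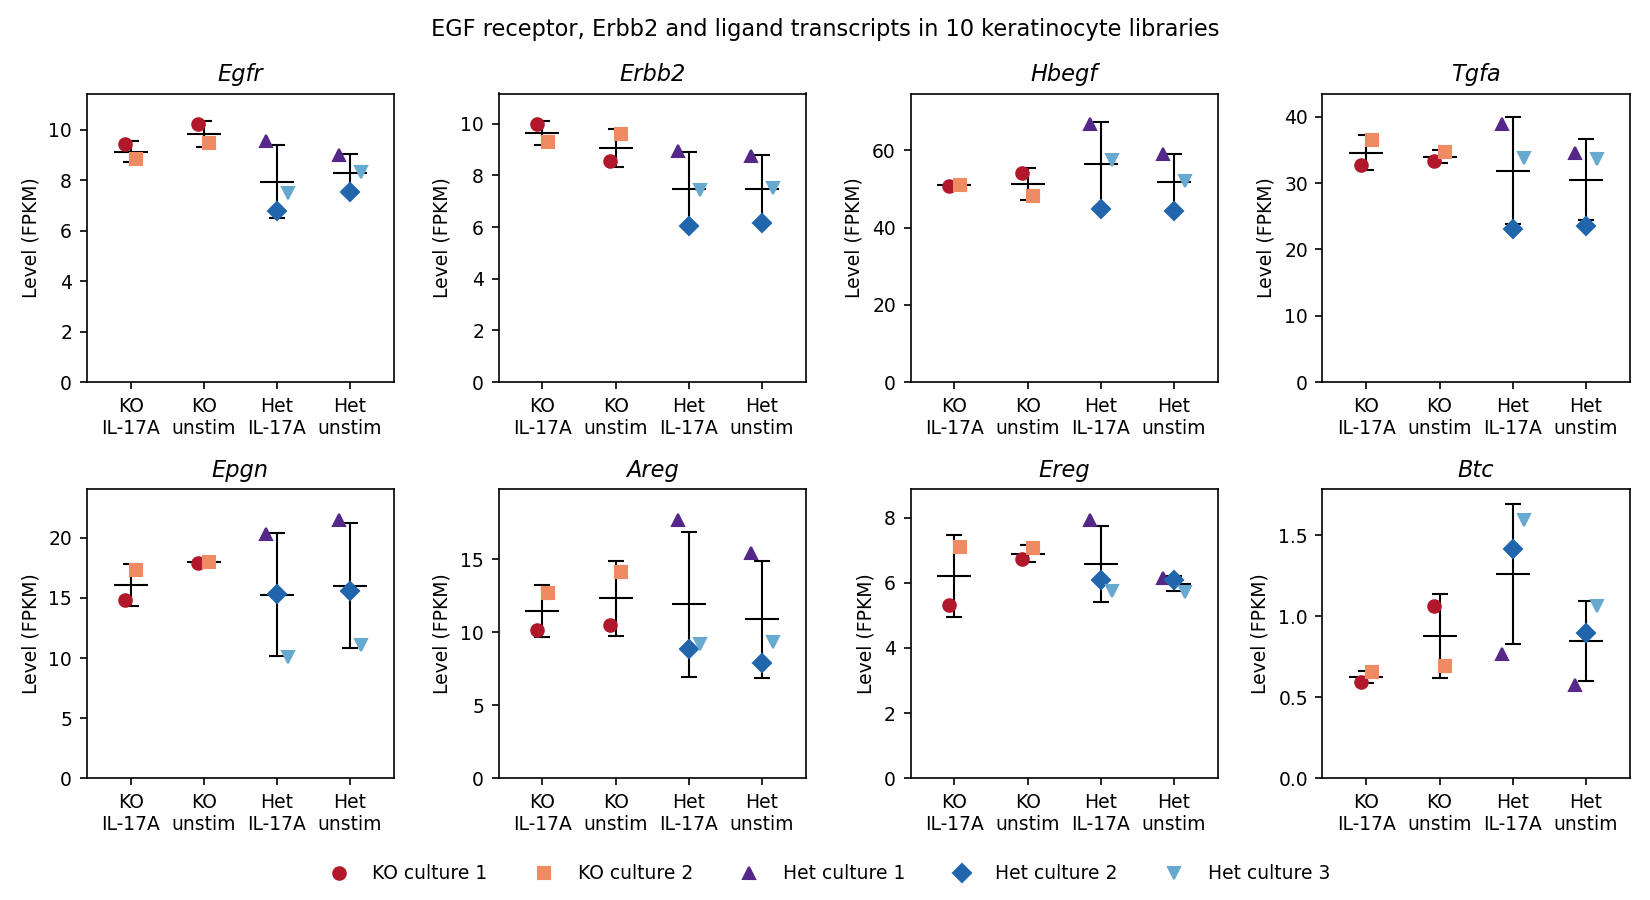
Level in FPKM of each member in the 10 libraries. Symbols are libraries, coloured by culture, and bars are the group mean ± SD (n = 2 for knockout and n = 3 for heterozygous). Hbegf lies between 44.2 and 66.7 FPKM and Btc between 0.576 and 1.59 FPKM. Heterozygous culture 1 lies above heterozygous cultures 2 and 3 for Egfr, Erbb2, Hbegf, Tgfa, Epgn, Areg and Ereg in both conditions, for Ereg unstimulated by little.

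The 2 receptors spanned 0.53 (Egfr) and 0.64 (Erbb2) on the log2(FPKM + 1) scale over the 10 libraries. Egfr was 9.43 and 8.84 FPKM in knockout cultures 1 and 2 with IL-17A, 10.2 and 9.49 FPKM in the same cultures unstimulated, 9.57, 6.77 and 7.49 FPKM in heterozygous cultures 1 to 3 with IL-17A, and 9.01, 7.53 and 8.35 FPKM in these unstimulated. The 4 libraries of heterozygous cultures 2 and 3 were the lowest, and those of heterozygous culture 1 lay among the knockout libraries. Erbb2 was 9.97 and 9.30 FPKM in knockout cultures with IL-17A, 8.54 and 9.59 FPKM unstimulated, 8.93, 6.04 and 7.44 FPKM in heterozygous cultures with IL-17A, and 8.77, 6.17 and 7.52 FPKM unstimulated. It showed the same arrangement, with heterozygous culture 2 lowest. Of the other receptors, Erbb3, a kinase-impaired partner of ERBB2, stood at 4.54 to 6.15 FPKM, and Erbb4 at 0 to 0.0034 FPKM, below the floor of 3 fragments.

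Hbegf (chr18:36504927-36515805, minus strand), encoding heparin-binding EGF-like growth factor, which also binds ERBB4, was 50.7 and 51.1 FPKM in knockout cultures with IL-17A, 54.2 and 48.3 FPKM unstimulated, 66.7, 44.9 and 57.5 FPKM in heterozygous cultures with IL-17A, and 58.9, 44.2 and 52.0 FPKM unstimulated. The knockout values lay inside the heterozygous range in both conditions. Tgfa, the classical autocrine ligand of keratinocytes, was 32.8 and 36.4 FPKM in knockout cultures with IL-17A, 33.3 and 34.6 FPKM unstimulated, 38.8, 23.1 and 33.7 FPKM in heterozygous cultures with IL-17A, and 34.5, 23.5 and 33.6 FPKM unstimulated. Heterozygous culture 2 stood lowest for both ligands with and without IL-17A.

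Areg, a lower-affinity ligand, was 10.2 and 12.7 FPKM in knockout cultures with IL-17A, 10.5 and 14.2 FPKM unstimulated, 17.7, 8.87 and 9.21 FPKM in heterozygous cultures with IL-17A, and 15.5, 7.87 and 9.37 FPKM unstimulated. Heterozygous culture 1 held the highest value in both conditions, and heterozygous cultures 2 and 3 the lowest. Epgn, another lower-affinity ligand, was 14.9 and 17.3 FPKM in knockout cultures with IL-17A, 17.94 and 17.99 FPKM unstimulated, 20.3, 15.4 and 10.1 FPKM in heterozygous cultures with IL-17A, and 21.5, 15.6 and 11.1 FPKM unstimulated. Here heterozygous culture 3 was the lowest, so that the neighbours Areg and Epgn did not share the culture with the lowest level. Ereg was 5.31 and 7.10 FPKM in knockout cultures with IL-17A, 6.72 and 7.08 FPKM unstimulated, 7.92, 6.10 and 5.73 FPKM in heterozygous cultures with IL-17A, and 6.13, 6.08 and 5.71 FPKM unstimulated. It had the smallest span of the 8 members on the log2(FPKM + 1) scale, 0.50, against 1.07 for Areg and 1.01 for Epgn.

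Btc was 0.596 and 0.652 FPKM in knockout cultures with IL-17A, 1.06 and 0.693 FPKM unstimulated, 0.769, 1.41 and 1.59 FPKM in heterozygous cultures with IL-17A, and 0.576, 0.893 and 1.06 FPKM unstimulated. At the estimated depth it rested on 10.4 to 33.8 fragments per kilobase, against at least 107 for each other member. Its mean over the 10 libraries was below the 1 FPKM required for testing, so 7 of the 8 members were tested.

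Taken as a sum, the 6 ligands reached 114 and 125 FPKM in knockout cultures with IL-17A, 124 and 123 FPKM in these unstimulated, 152, 99.7 and 118 FPKM in heterozygous cultures with IL-17A, and 137, 98.1 and 113 FPKM unstimulated. The knockout sums lay inside the heterozygous range in both conditions. Hbegf made up 39.3% to 48.8% of the sum, Tgfa 23.1% to 29.8%, Epgn 8.59% to 15.9%, Areg 7.81% to 11.6%, Ereg 4.48% to 6.20% and Btc 0.420% to 1.42%. Egf itself, the founding ligand of the family, stood at 0 to 0.10 FPKM. Nrg1, encoding neuregulin, a ligand of ERBB3 and ERBB4, stood at 57.1 to 68.3 FPKM in the knockout cultures and heterozygous culture 1 and 32.8 to 43.7 FPKM in heterozygous cultures 2 and 3.

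**Figure D2:**
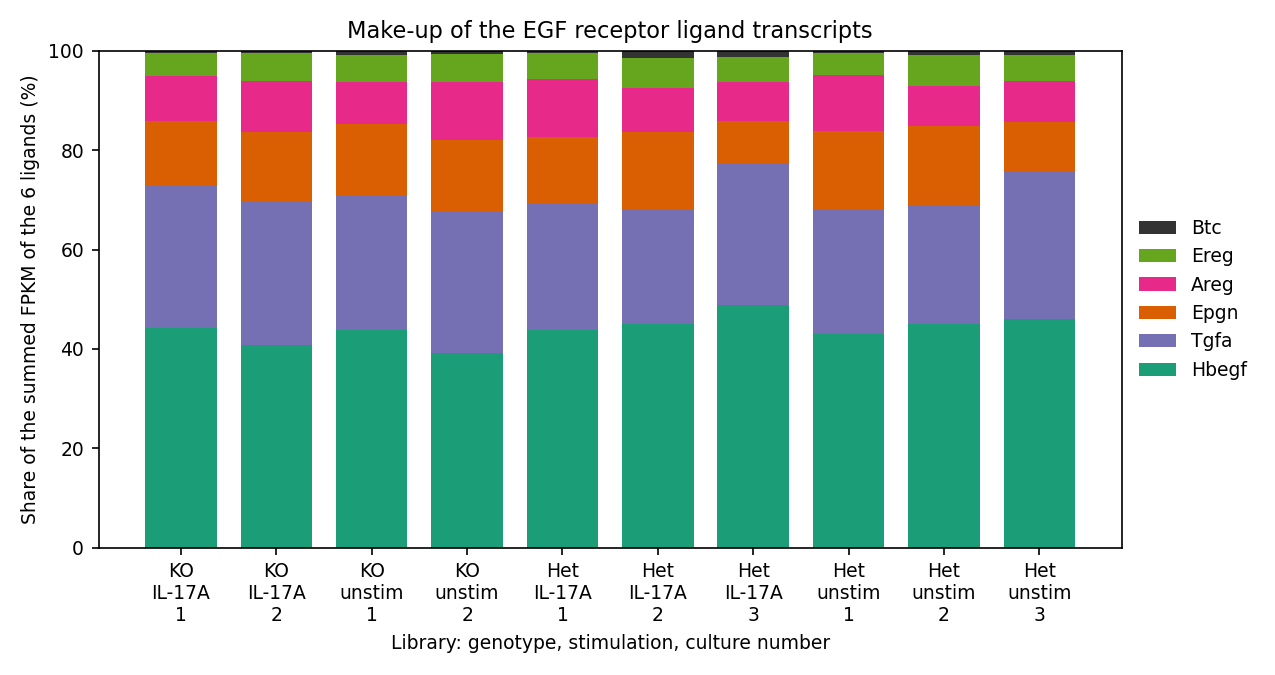
Share (%) of each ligand transcript in the summed FPKM of the 6 ligands, 1 bar per library. Hbegf and Tgfa are the 2 largest parts of each bar, Hbegf with 39.3% to 48.8%, and Btc is a line at the edge, with at most 1.42%.

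Whether IL-17A altered these transcripts was asked in each genotype and over all cultures. None of the 7 tested members passed the threshold, an adjusted p of 0.05 from limma on log2(FPKM + 1) over 12054 genes. In the knockout cultures 0 of 7 were called, where 0.0249% of all tested genes were (3 genes, with 176 at an unadjusted p under 0.05). Their log2 changes lay between Epgn at -0.16 (SE 0.33) and Erbb2 at 0.08 (SE 0.19), each with an adjusted p of 1. In the heterozygous cultures 0 of 7 were called, where 0.0083% of all genes were (1 gene, with 162 at an unadjusted p under 0.05), and the changes lay between Epgn at -0.07 (SE 0.27) and Hbegf at 0.11 (SE 0.16), each with an adjusted p of 1. At an unadjusted p under 0.05 there were 0 members in either genotype. These fits had no culture term. With culture as a fixed block the SE were smaller. Epgn in knockout then had an SE of 0.073 (limma unadjusted p = 0.0801, adjusted p = 0.891). Hbegf in heterozygous cultures had an SE of 0.058 (limma unadjusted p = 0.102, adjusted p = 0.759). The median change of the 7 members was -0.09 in knockout and 0.048 in heterozygous cultures, beside -0.00053 and -0.013 over all tested genes. Without knockout culture 1, whose libraries differ in Bcl10, the knockout changes were -0.054 for Epgn and -0.040 for Erbb2, which turned the sign of Erbb2.

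The tightest estimate came from the effect averaged over the 5 cultures, with culture as a term, since libraries of the same number deviated together within a genotype. Here 0 of 7 members were called (18 genes, 0.149% of all tested, were called), and the intervals were narrow. Egfr had a log2 change of -0.08 (SE 0.047, 95% interval -0.19 to 0.035, adjusted p = 0.904) and was lower with IL-17A in 4 of 5 cultures. Hbegf had 0.07 (SE 0.048, interval -0.049 to 0.18, adjusted p = 0.932) and was higher in 4 of 5. Epgn was the member with the smallest p: its change of -0.10 (SE 0.046, interval -0.21 to 0.0065) had an unadjusted p of 0.0612 and an adjusted p of 0.834, and it was lower in 5 of 5 cultures. As folds of FPKM + 1, these intervals run from 0.876 to 1.02 for Egfr, 0.966 to 1.13 for Hbegf and 0.862 to 1.01 for Epgn, so a larger change at 5 h lies outside them.

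The other 4 tested members were closer to 0 on average. Tgfa changed by 0.04 on the log2 scale (SE 0.042, interval -0.062 to 0.14), Erbb2 by 0.03 (SE 0.050, interval -0.09 to 0.15), Areg by 0.03 (SE 0.059, interval -0.12 to 0.17) and Ereg by 0.0088 (SE 0.084, interval -0.19 to 0.21), with adjusted p of 0.951, 0.973, 0.982 and 0.995. For Ereg the cultures went apart, with -0.29 in knockout culture 1 and 0.32 in heterozygous culture 1 but between 0.0028 and 0.0053 in knockout culture 2 and heterozygous cultures 2 and 3. Without knockout culture 1 the average of Epgn was -0.066 and that of Erbb2 -0.014, and without heterozygous culture 1 those of Areg and Ereg were -0.014 and -0.069, so Erbb2, Areg and Ereg turned their sign.

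**Figure D3:**
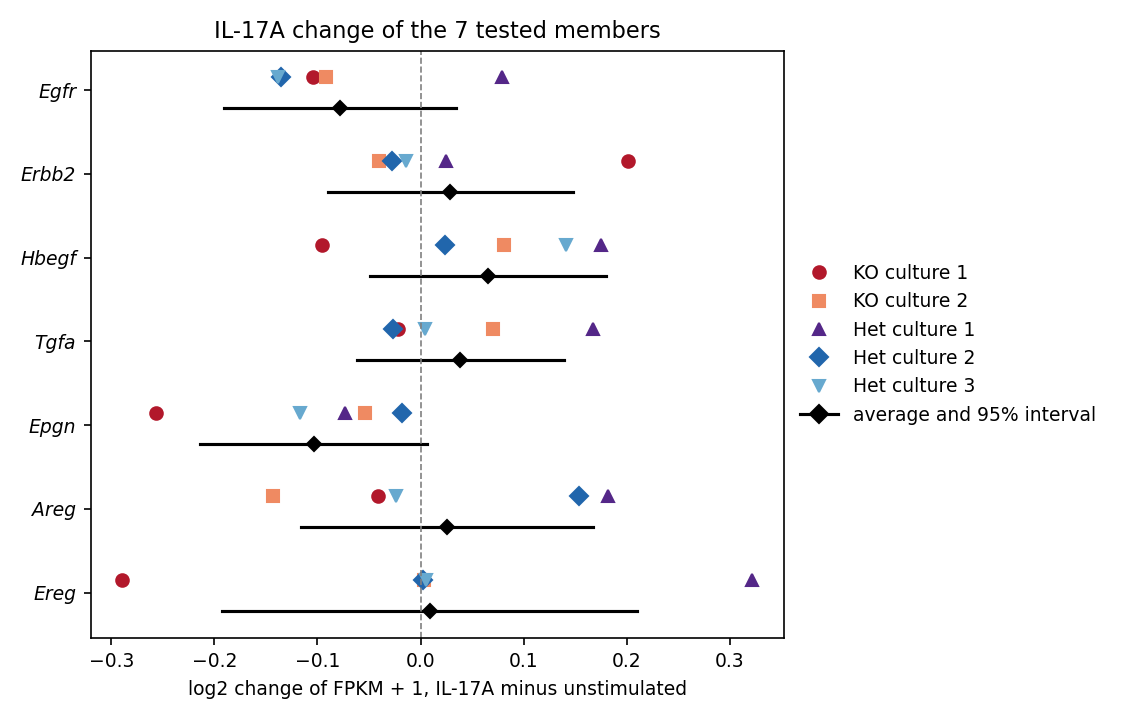
Change in log2(FPKM + 1) with IL-17A (IL-17A minus unstimulated) of the 7 tested members. Coloured symbols are the 5 cultures, and black diamonds with lines are the average over cultures with its 95% interval. All 7 intervals include 0, and Epgn, at -0.10, has all 5 cultures below 0.

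The difference in IL-17A response (knockout minus heterozygous) was called for 0 of 7 members and for 0% of all tested genes, of which 143 had an unadjusted p under 0.05. The values ran from -0.25 for Ereg (SE 0.21, unadjusted p = 0.257) to 0.09 for Erbb2 (SE 0.24, unadjusted p = 0.726), both with a limma adjusted p of 1. For Areg the 95% interval of this difference ran from -1.26 to 0.86. With culture as a fixed block, which uses the pairing within genotypes, the difference of Areg was -0.20 (SE 0.099, interval -0.44 to 0.050, limma adjusted p = 0.779).

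Between genotypes, 0 of 7 members were called in either condition, and with all libraries the differences farthest from 0 were those of the receptors. With IL-17A, Erbb2 averaged 9.64 ± 0.476 FPKM in knockout (SD, n = 2) and 7.47 ± 1.45 FPKM in heterozygous libraries (SD, n = 3), a log2 difference of 0.34 (SE 0.17, limma adjusted p = 0.507). Egfr averaged 9.14 ± 0.419 FPKM in knockout and 7.94 ± 1.45 FPKM in heterozygous libraries (0.19, SE 0.14, adjusted p = 0.524). The ligand differences were 0.14 for Tgfa, 0.12 for Epgn, 0.0058 for Areg, -0.07 for Ereg and -0.13 for Hbegf, with adjusted p of 0.702 to 0.995. In this comparison 0.0249% of all tested genes were called (3 genes, with 981 at an unadjusted p under 0.05).

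In unstimulated cells 0% of all tested genes were called, with 562 at an unadjusted p under 0.05. Erbb2 averaged 9.07 ± 0.742 FPKM in knockout and 7.49 ± 1.30 FPKM in heterozygous libraries (0.26, SE 0.17, limma adjusted p = 0.728), and Egfr 9.85 ± 0.514 FPKM in knockout and 8.30 ± 0.739 FPKM in heterozygous libraries (0.23, SE 0.14, adjusted p = 0.728). The ligand differences were 0.20 for Areg, 0.20 for Epgn, 0.18 for Ereg, 0.17 for Tgfa and -0.0056 for Hbegf, with adjusted p of 0.728 to 0.992. Without the unstimulated knockout library 1 the differences were 0.33 for Erbb2, 0.18 for Egfr and 0.40 for Areg, each with an adjusted p of 0.896. This leaves 1 unstimulated knockout library, which is assumed to vary like the other groups.

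These differences moved with heterozygous culture 1. The genotype fits given here count the libraries of a culture as independent, although same-numbered libraries deviated together, so their p-values may be too small. Without heterozygous culture 1, the IL-17A comparison gave 0.46 for Erbb2 (SE 0.13, adjusted p = 0.0679) and 0.32 for Egfr (SE 0.10, adjusted p = 0.0786). The unstimulated comparison then gave 0.46 for Areg (SE 0.17, adjusted p = 0.16), 0.42 for Epgn (SE 0.22, adjusted p = 0.251), 0.36 for Erbb2 (adjusted p = 0.165) and 0.28 for Egfr (adjusted p = 0.159). There were still 0 of 7 members called in either condition, while 6.7% of all tested genes with IL-17A and 1.05% unstimulated were called. With IL-17A, 2 of 7 members and 4343 of 12054 genes had an unadjusted p under 0.05. Unstimulated, 3 of 7 members and 3089 genes did. With the number set as a term, shared by both conditions, heterozygous culture 1 in effect sets the level of the heterozygous side. The IL-17A change of that side is taken from all heterozygous cultures. Heterozygous culture 1 has 1 library in each condition and is assumed to vary like the other libraries. In this fit the difference of Erbb2 was 0.11 with IL-17A and 0.027 unstimulated, and that of Egfr 0.011 and 0.044. Areg then differed by -0.55 with IL-17A (SE 0.17, unadjusted p = 0.0112, adjusted p = 1) and by -0.36 unstimulated (SE 0.17, unadjusted p = 0.0671, adjusted p = 1), with the sign turned. Hbegf differed by -0.35 with IL-17A in that fit (SE 0.14, limma unadjusted p = 0.0406). With IL-17A, 2 of 7 members and 444 of 12054 genes had an unadjusted p under 0.05. Unstimulated, 0 of 7 members and 475 genes did. In that fit 0 of 7 members were called in either condition, with 0.0332% of all genes called with IL-17A and 0.0166% unstimulated.

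**Figure D4:**
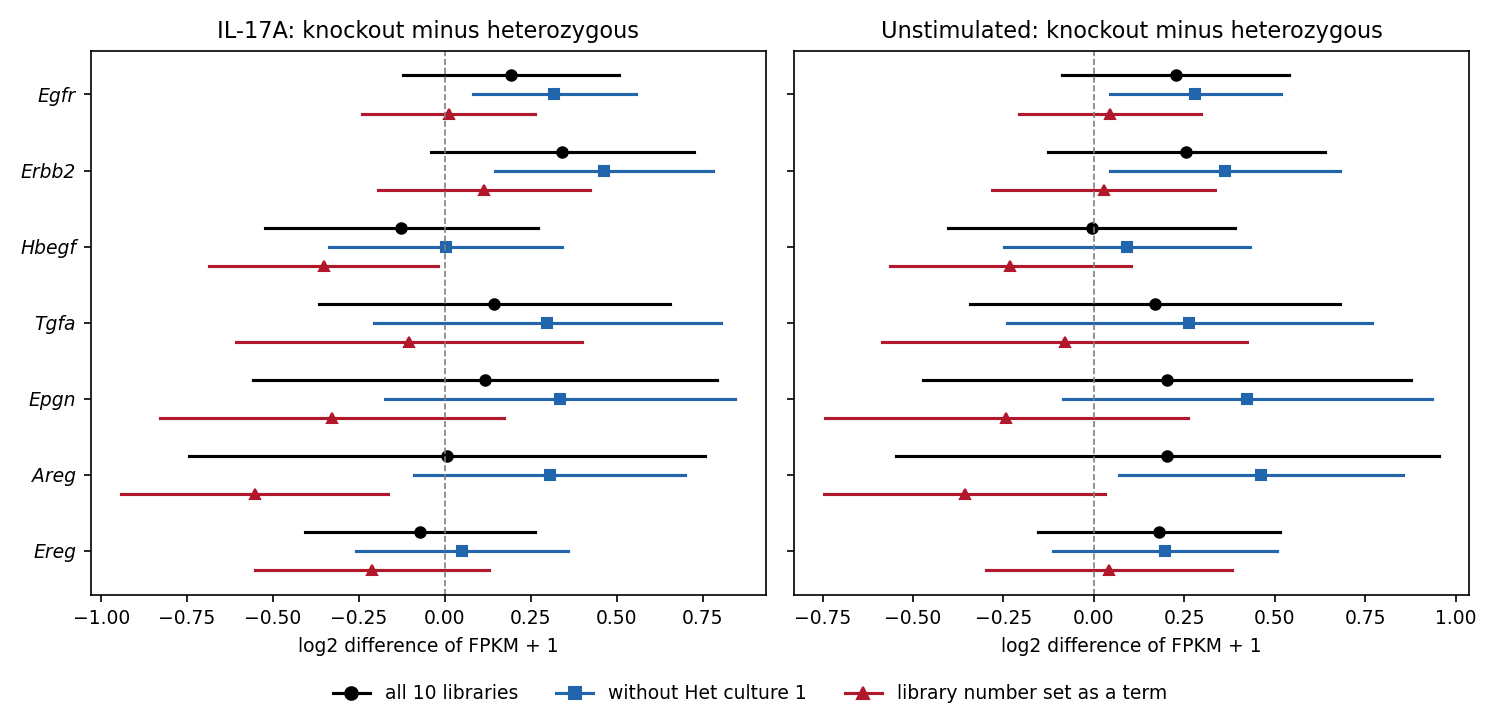
Difference in log2(FPKM + 1) between knockout and heterozygous libraries (knockout minus heterozygous) of the 7 tested members, with IL-17A (left) and unstimulated (right). Symbols with lines are estimates with 95% intervals from all 10 libraries, without heterozygous culture 1, and with the number set as a term. The estimates of Egfr and Erbb2 lie above 0 in the first 2 and closer to 0 in the third. Their intervals from all 10 libraries include 0. Without heterozygous culture 1 their intervals lie above 0 in both conditions, before adjustment over all tested genes. Areg with IL-17A is at 0.0058 with all libraries and at -0.55 with the number set as a term.

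The number sets themselves separated 3 of the 7 tested members. Egfr, Erbb2 and Areg were lower in all 4 libraries numbered 33 to 38 than in all 6 numbered 1 to 14: Egfr at 6.77 to 8.35 against 8.84 to 10.2 FPKM, Erbb2 at 6.04 to 7.52 against 8.54 to 9.97 FPKM, and Areg at 7.87 to 9.37 against 10.2 to 17.7 FPKM. Over all tested genes, 17.4% lay entirely below in the same way and 18.4% entirely above, and 0 members lay above. As the higher numbers hold only heterozygous libraries, a genotype difference cannot be told apart from the number split in heterozygous cultures 2 and 3. Other cell type markers moved with the same split: 5 of 5 melanocyte markers were higher in the libraries numbered 33 to 38, with sums of 315 to 406 FPKM against 168 to 196 FPKM, and 4 of the 6 tested keratinocyte markers (Krt5, Krt14, Itga6 and Col17a1) were lower. Their part in the members' levels was not tested, and in such bulk libraries fewer cells of a type and less RNA per cell cannot be told apart. Fibroblast markers summed to 28.5 to 28.7 FPKM in knockout culture 2 and to 0.159 to 0.454 FPKM in the other libraries. Their part was not tested. For each of the 7 tested members, the levels in knockout culture 2 lay within the range of the other 8 libraries.

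Around the receptor, 73 further genes of the pathway were examined (other ERBB receptors and ligands, shedding factors, signalling components, negative regulators and transcripts that respond to ERK), of which 66 were tested. None of the 66 was called in either genotype's IL-17A comparison, in either genotype comparison or for the difference in response. In the average over cultures 1 rose and 0 fell, where 0.149% of all tested genes were called. The median log2 change of the 66 was -0.0033 beside -0.0077 over all tested genes. The gene that rose was Ier3, an immediate early gene that growth factors and NF-kB induce. It was 225 and 230 FPKM in knockout cultures with IL-17A, 169 and 180.5 FPKM in these unstimulated, 266, 321 and 349 FPKM in heterozygous cultures with IL-17A, and 203, 253 and 286 FPKM unstimulated. Each culture was higher with IL-17A, by 0.29 to 0.41 on the log2 scale, and the average was 0.36 (SE 0.032, adjusted p = 0.0218). The call was lost whenever any 1 of the 5 cultures was left out, with adjusted p of 0.0533 to 0.176.

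Among the shedding factors, 0 of 8 were called in that average, where 0.149% of all tested genes were. Adam17, the main sheddase of these ligands, stood at 10.1 to 14.3 FPKM and Adam10, the sheddase of EGF and betacellulin, at 26.8 to 35.7 FPKM. Rhbdf1 and Rhbdf2, the inactive rhomboids that carry ADAM17 to the cell surface, stood at 10.3 to 15.2 and 5.56 to 7.81 FPKM. The smallest p in the list was that of Adam8, another metalloprotease (0.15, SE 0.042, adjusted p = 0.622). Of the signalling components, 0 of 25 were called, the smallest p being that of Sos2, a RAS exchange factor (0.11, adjusted p = 0.894). Stat3, a transcription factor downstream of the receptor, stood at 6.17 to 10.2 FPKM and Mapk7, encoding ERK5, at 4.14 to 5.72 FPKM. Erbb3 had the smallest p of the other receptors and ligands (0.06, adjusted p = 0.932).

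Among the negative regulators, 0 of 18 were called in that average, where 0.149% of all tested genes were. Lrig1, a membrane protein that promotes EGF receptor degradation, had the smallest p (0.21, SE 0.040, adjusted p = 0.259) and was higher with IL-17A in 5 of 5 cultures. Errfi1, an inhibitor of the receptor's kinase, was 48.8 and 51.3 FPKM in knockout culture 2 and 27.6 to 40.6 FPKM in the others. Cbl, the receptor's ubiquitin ligase, stood at 5.22 to 8.66 FPKM, and Dusp6, an ERK phosphatase, at 67.9 to 81.5 FPKM. Spry4, a RAS-ERK inhibitor, was 2.99 and 3.02 FPKM in knockout culture 2, the culture with fibroblast markers, and 0.797 to 1.26 FPKM in the others. Of 13 tested ERK-responsive transcripts Ier3 alone was called. Fosl1, an AP-1 subunit, stood at 18.6 to 34.3 FPKM, Egr1, an immediate early factor, at 9.00 to 13.4 FPKM and Etv4, an ETS factor, at 11.9 to 22.04 FPKM. Phlda1 was 52.6 FPKM in knockout culture 2 with IL-17A and 107 to 142 FPKM in all other libraries.

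Between genotypes the median difference of the 66 pathway genes was 0.11 with IL-17A and 0.09 unstimulated, beside -0.0094 and -0.015 over all tested genes. Without heterozygous culture 1, 5 of the 66 were higher (Adam12, Fosl1, Lrig3, Nrg1 and Spry1) and 1, Ier3, was lower in knockout libraries with IL-17A at an adjusted p under 0.05, where 6.7% of all tested genes were called. Unstimulated, 0 were higher and 1, again Ier3, was lower, where 1.05% of all tested genes were called. With the number set as a term 0 of 66 were called. Nrg1 had 0.67 without heterozygous culture 1 (adjusted p = 0.0464) and -0.10 with the number set as a term. In the libraries numbered 33 to 38, 7 of the 18 negative regulators lay entirely lower and 1 entirely higher, beside 17.4% and 18.4% of all tested genes. The signalling components had 2 of 25 lower and 1 higher, the ERK-responsive transcripts 2 of 13 lower and 1 higher, the shedding factors 1 of 8 lower and 1 higher, and the other receptors and ligands 1 of 2 lower and 0 higher.

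Likeness of pattern was measured over the 10 libraries as the root mean square difference of log2(FPKM + 1) after each gene was centred on its own mean. Nearest to Egfr were Heatr3 (0.028), Gtf3c4 (0.039) and Slc16a10 (0.039). Nearest to Erbb2 were Extl3 (0.037), Gm16580 (0.043) and Fam117b (0.046), and to Tgfa Flt1, the VEGF receptor gene (0.062), Numa1 and Gbf1 (0.064 each). Hbegf lay nearest to Fam3a (0.068), Xkrx (0.076) and Crybg3 (0.084). Areg, whose span is the widest, lay nearest to the pseudogene Cdv3-ps (0.11), whose reads may be shared with its parent gene, Gm12928 and the AP-1 gene Fosb (0.12 each), and Epgn to Zfp993, Tnfrsf18 (0.13 each) and Adm (0.14), so both were farther from their nearest genes. Among the 7 tested members, Egfr and Erbb2 were the closest pair, at 0.11, and Tgfa and Epgn the most distant, at 0.35; Btc was not compared. Slc16a10 (0.683 to 1.34 FPKM), Xkrx (1.04 to 2.41 FPKM) and Fosb (0.595 to 2 FPKM) are low, and this scale understates changes of low genes. The distances share the libraries and the number split, and are a description.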

How the data were processed

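RNA (100 ng a library) was poly(A)-selected, per the labels' protocols. The authors deposited FPKM values of 37991 Ensembl genes for the 10 libraries. HISAT2, SAMtools, StringTie and DESeq2 and the build mm10 are named, per the submitters' processing notes, with no version. Symbols were matched for 32919 rows, and 17074 rows were 0 throughout.

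The 12054 genes averaging 1 FPKM or more were tested on log2(FPKM + 1) with limma 3.58.1 (R 4.3.3) and its mean-variance trend, with a mean for each of 4 groups, two-sided, with Benjamini-Hochberg adjustment across all 12054 and a threshold of 0.05. The averaged IL-17A effect had culture as a term. A log2 change on this scale understates changes of low genes. The script was tested on simulated data.

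Numbers were checked for pairing before fits were compared: same-numbered libraries' deviations from group means correlated at 0.227 in knockout and 0.607, 0.488 and 0.137 in heterozygous cultures, but at -0.155 to 0.0476 across genotypes, so numbers pair libraries within a genotype only. Depth was read from low-value steps (single-exon genes, 300 to 3000 bp); 48.5% to 55.3% of these values were whole fragments within 0.05. Floors cover counting error only.

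The members and gene lists were chosen with earlier results of these data known. Named genes were the members, a fixed set of pathway genes, any other listed gene past the threshold and otherwise the smallest p of each list, and the 3 genes most like each member with a span of at least 0.5 on the log2 scale. Of the 5 called higher without heterozygous culture 1, Nrg1 and Fosl1 were in the fixed set. Adam12, Lrig3 and Spry1 were named after their values were seen. Alternatives were a pseudocount of 0.1, no filter, a filter of 5 FPKM, TPM and median-of-ratios scaling, leaving out each library or culture, fitting only the groups compared, replicate blocks and the number set.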

Additional observations from a re-analysis of the deposited data

Results flagged for a closer look

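Btc, the least abundant ligand, moved in opposite directions with IL-17A in the 2 genotypes, since each knockout culture was lower and each heterozygous culture higher than its unstimulated partner. The mean change in log2(FPKM + 1) was -0.202 over the 2 knockout cultures and 0.282 over the 3 heterozygous cultures. By culture it was -0.37 and -0.036 in knockout cultures 1 and 2, and 0.17, 0.35 and 0.33 in heterozygous cultures 1 to 3. The knockout fall thus rests mainly on culture 1. Its unstimulated library, with 1.06 FPKM of Btc, is the one whose Bcl10, at 0.969 FPKM, differed from the other knockout libraries. The difference between the genotypes, fitted with no filter on low values because Btc averages under 1 FPKM, was -0.48 (SE 0.26, 95% interval -1.09 to 0.13, limma unadjusted p = 0.105, adjusted p = 1). Of the 12054 tested genes, 882 (7.32%) showed the same kind of opposition between the cultures of the genotypes. Btc rested on 10.4 to 33.8 fragments per kilobase at the estimated depth. With IL-17A, knockout cultures 1 and 2 had 0.596 and 0.652 FPKM of Btc, heterozygous culture 1, whose Bcl10 is at the knockout level, had 0.769 FPKM, and heterozygous cultures 2 and 3 had 1.41 and 1.59 FPKM. Over all libraries the knockout minus heterozygous difference with IL-17A was -0.46 on the log2 scale (no filter, limma unadjusted p = 0.0411, adjusted p = 0.611), and these values show that it rests on heterozygous cultures 2 and 3.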

How the results depend on the processing

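The 26 alternatives, each run for the comparisons it applies to, gave 137 counts of called members over the 6 comparisons, and each was 0. Of 971 member tests 0 had a limma adjusted p under 0.05. The lowest was 0.0679, for Erbb2 with IL-17A without heterozygous culture 1. For the averaged IL-17A effect, leaving out a library gave the same estimate as leaving out its culture, so the 971 tests hold repeats. With a replicate block (culture, or replicate number across genotypes) or with no replicate block, the count was 0 as well. Signs of differences did turn, not only of small ones, and the cause was not tested. In unstimulated cells the genotype difference of Areg was 0.46 without heterozygous culture 1 and -0.36 with the number set as a term. That of Epgn was 0.42 and -0.24 in these 2 fits. Between genotypes in unstimulated cells, Hbegf was 0.023 with TPM scaling, 0.011 with median-of-ratios scaling, 0.010 with a block of replicate number, 0.077 without knockout culture 2, 0.092 without heterozygous culture 1 and 0.0036 without heterozygous culture 3. Epgn there was -0.036 with that block, -0.24 with the number set as a term and -0.025 without heterozygous culture 3, Tgfa -0.081 with the number set as a term and -0.0037 without heterozygous culture 2, and Areg -0.36 with the number set as a term. Between genotypes with IL-17A, the number set as a term gave -0.10 for Tgfa, -0.33 for Epgn and -0.55 for Areg, and the block of replicate number -0.12 for Epgn and -0.10 for Areg. There, Hbegf was 0.0021 and Ereg 0.049 without heterozygous culture 1, Ereg was 0.11 without knockout culture 1, Tgfa was -0.065 without heterozygous culture 2, Epgn was -0.13 without heterozygous culture 3, and Areg was -0.14, -0.16 and -0.13 without knockout culture 2, heterozygous culture 2 and heterozygous culture 3. For the averaged IL-17A effect, Erbb2 was -0.014 without knockout culture 1, Areg -0.014 and -0.0065 without heterozygous cultures 1 and 2, and Ereg -0.069 without heterozygous culture 1 and -0.016 with no replicate block. Without knockout culture 1 the IL-17A change of Erbb2 in knockout was -0.040 and its difference in response -0.034.

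A group left with 1 library was assumed to vary like the other groups. When 1 library at a time was left out, the IL-17A change in heterozygous cultures ran from -0.30 to 0.18 for Epgn and from -0.015 to 0.26 for Hbegf. The genotype difference in unstimulated cells ran from -0.11 to 0.092 for Hbegf, from -0.0037 to 0.26 for Tgfa and from -0.025 to 0.42 for Epgn. With IL-17A it ran from -0.28 to 0.0021 for Hbegf, from -0.16 to 0.30 for Areg, from -0.25 to 0.11 for Ereg, from -0.065 to 0.30 for Tgfa and from -0.13 to 0.34 for Epgn. The difference in response of Erbb2 ran from -0.040 to 0.21, and the averaged effect from -0.014 to 0.046 for Erbb2, from -0.014 to 0.068 for Areg and from -0.069 to 0.083 for Ereg. Ier3 kept its direction in each setting and lost its call when any library or culture was left out, with no filter (adjusted p = 0.0745) and with no replicate block (adjusted p = 1). TPM scaling shifted the median of all genes by at most 0.063 on the log2 scale. Of the members, Btc rests on the fewest fragments, 10.4 to 33.8 per kilobase.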
